A study of Mus musculus with 12 samples.

Results

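Corepressor complexes are bridges between DNA-binding repressors and enzymes that close chromatin. The 41 genes described here encode the deacetylases, scaffolds and subunits of the Sin3, NuRD and NCoR complexes, the CtBP and Groucho (Tle) corepressors and the MIER proteins. They were chosen by gene name, from knowledge of these complexes and with earlier results of these data known, out of 20409 genes. All 41 were found. By complex there were 3 class I and 4 class IIa histone deacetylases, 12 Sin3 subunits, 4 NCoR subunits, 9 NuRD subunits, 2 CtBP genes, 4 Groucho genes and 3 MIER genes.

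In the Sin3 complex, the Sin3a or Sin3b scaffold holds class I deacetylases, which remove acetyl groups from histone tails, together with Sap, Brms1, Ing and Arid4 subunits. NuRD joins the same deacetylases to an ATP-driven nucleosome remodeller, Chd3 or Chd4, and to Mta, Gatad2 and methyl-CpG-binding Mbd subunits. NCoR is a large scaffold that is recruited by unliganded nuclear receptors and activates Hdac3, with Tbl1x, Tbl1xr1 and Gps2 as partners. CtBP proteins and Groucho proteins are recruited by short peptide motifs in DNA-bound repressors, and the MIER proteins also hold class I deacetylases.

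ORFtag asks what a protein does to a reporter when it is brought there. A retroviral cassette carries a promoter, a selection gene, a tag and a splice donor, integrates anywhere in the genome, and the cell then splices the tag onto the next splice acceptor downstream. Insertion sites were then mapped by inverse PCR and sequencing in cells sorted for a change in GFP and in unsorted cells. There were 12 libraries in 6 groups of 2 replicates, a sorted and an unsorted group for each of 3 screens.

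All cells were diploid mouse embryonic stem cells (mESCs) from an originally haploid line, and each reporter line was 1 clone. The repressor and activator lines were wild type apart from the reporter, while the PTGR line also expressed CreERT2, a recombinase that tamoxifen switches on and that later removed the boxB sites. The repressor screen used pEF1-BFP-7xTetO-pPGK-Puro-IRES-GFP, an active reporter at the expression-stable locus on Chr15, the tag TetR, and a sort for low GFP. The activator screen used 7xTetO-pMYLPF-Puro-IRES-GFP, a reporter that is off, at the same locus, the tag TetR, and a sort for high GFP. The PTGR screen, for regulators that act after transcription, used Puro-IRES-GFP-10xBoxB, integrated at random, the RNA-binding λN tag, and repeated sorts for low GFP with a last sort after the boxB sites had been removed with 4-hydroxytamoxifen. In each screen the cassette came in 3 variants, 1 for each reading frame.

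Each distinct position was counted as 1 insertion and given to the closest non-first exon downstream, if within 200 kb. The sorted libraries held between 14705 and 60980 such insertions (22266 and 15204 in the repressor screen) and the unsorted libraries between 54088 and 233799. The 6 unsorted libraries together, 1022126 insertions, were the background of every screen, so the 3 comparisons share it. The sorted replicates of the repressor screen had positions in common: 18.2% of those in replicate 1 and 26.0% of those in replicate 2 were found in the other, against between 0.546% and 2.26% in the other screens. Per the study's methods, replicates came from separate transductions, and the sorted and unsorted cells of a screen from the same transduced cells. In the activator and PTGR screens each sorted library had more of its positions in the unsorted library of its own number than in the other (19.5% against 1.46% in activator replicate 2, 18.2% against 0.342% in PTGR replicate 1), while in the repressor screen it was 8.17% against 9.86% in replicate 1 and 8.23% against 5.03% in replicate 2. P-values of Fisher's exact test, on merged libraries, carry counting error alone, and those of edgeR and DESeq2 also take in the spread between libraries. Both unsorted lists of the repressor screen gave 100% of their positions more than once, and each call below is therefore also given without those libraries where that changed it.

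The cassette reached every one of the 41 genes in unsorted cells, with between 3 and 998 insertions and a median of 43. Under 10 insertions fell at 7 of them, among them Sin3a with 8, Sin3b with 3, Hdac3 with 6 and Mier2 with 3. For such genes a lack of sorted insertions says little: a count of 0 allowed up to 1.35 insertions per 10000 in repressor sorted replicate 1 and 1.97 in replicate 2.

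The splice acceptors that the insertions led to are shown here because they turned out to separate sorted from unsorted cells at Ncor1 and Arid4b. Each line gives 20 bases of intron in lower case and the first 10 bases of the exon in capitals, 5′ to 3′ on the strand of the gene, read from GRCm38 (mm10).
Ncor1 exon 2, chr11:62438506-62438535, minus strand: tctttttctgttctatgtagGTTGCTTCCT
Ncor1 exon 3, chr11:62433690-62433719, minus strand: gacaattattttaataccagGAATTTGCAG
Ncor1 exon 4, chr11:62423058-62423087, minus strand: tattttttggaatgtattagGCCTCAAGAA
Ncor1 exon 24, chr11:62354679-62354708, minus strand: tttatctttttattttttagGGAACTCCTG
Arid4b exon 2, chr13:14064805-14064834, plus strand: tgtctttgtttcccctccagGTGCAGGTGA
Arid4b exon 3, chr13:14120121-14120150, plus strand: gtatttctttgcatttttagGCCCTTGATG
Chd4 exon 2, chr6:125097067-125097096, plus strand: ctcccccctcccccgcacagTGACTCGGGC
Chd3 exon 2, chr11:69364795-69364824, minus strand: gtacttttttttctctaaagATAAAGATGA
Mier3 exon 2, chr13:111687808-111687837, plus strand: tctctctctcactctcccagGCTTCCTTTG

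All 9 introns ended in AG, as splice acceptors do. In Ncor1 and Arid4b, exon 2 begins before the start codon, and the bases between the acceptor and that start codon hold a stop codon in the same reading frame. In Arid4b it is the TGA that ends the printed line, at bases 8 to 10 of the exon. In Ncor1 it begins at base 35 of an exon with 70 bases before the start codon, and is shown in capitals with 9 bases on either side.
Ncor1 exon 2 stop codon, chr11:62438470-62438490, minus strand: tgttggactTGAtctcacagc
In Chd4, exon 2 also begins before the start codon, by 79 bases, but these hold no stop codon in frame; the TGA at its first bases lies in another frame. In Chd3 and Mier3, exon 2 begins within the coding sequence, at residues 86 and 4.

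In the repressor screen, 4 of the 41 genes had more insertions in sorted cells than in the background: the NCoR scaffold Ncor1, the NuRD remodellers Chd3 and Chd4, and the Sin3 subunit Arid4b. For a call, the one-sided Fisher's exact test had to give an adjusted p below 0.001, and the log2 odds ratio had to reach 1. That was 4 of the 18 members with the 3 sorted insertions needed for the test, beside 8.18% of all 2346 genes tested. Together the 4 genes held 531 sorted insertions where 42.0 were expected from the background. The other 37 genes held 100 where 146 were expected, before the shift described next is taken into account.

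Odds ratios in this screen have to be read against a shift that touches every gene. The 192 genes called held 54.8% of the sorted insertions but 2.95% of the background, which by itself lowers an unchanged gene by 1.10 on the log2 scale. The median log2 odds ratio of the 2152 genes with at least 5 sorted insertions expected was -1.37. The 7 members with that many expected had a median of -0.96, and 5 of them lay above the median of all genes. Numbers expected are given throughout from the background share without this shift, so an unchanged gene of this screen lies below them.

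Ncor1, on chr11:62316426-62458541 on the minus strand, had the most insertions of any of the 41 genes in sorted and unsorted cells alike. Of its insertions, 256 were in repressor sorted replicate 1 and 136 in replicate 2, or 115 and 89.5 per 10000. In the 6 unsorted libraries the rate was between 7.03 and 11.4 per 10000, with a median of 9.42. Both sorted libraries lay far above all unsorted ones, at a mean of 102 ± 18.0 (SD, n = 2) against 9.49 ± 1.62 (SD, n = 6) per 10000. The odds ratio was 10.8, a log2 odds ratio of 3.44 ± 0.086 (SE from counting error, adjusted p = 2.08e-226, Fisher's exact test). Within the screen, against its own unsorted libraries, edgeR gave a log2 fold change of 3.51 and an adjusted p of 4.36e-34. The 392 sorted insertions lay at 344 distinct positions, 48 of them found in both replicates.

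Chd3 and Chd4 are alternative ATPase subunits of NuRD. Chd3, on chr11:69343273-69369406 on the minus strand, had 15.7 and 19.1 insertions per 10000 in the sorted replicates, from 35 and 29 insertions. Its unsorted libraries lay between 0.185 and 0.791 per 10000, with a median of 0.314, so the groups did not overlap. Chd3 had the highest log2 odds ratio of the 41 genes, 5.49 ± 0.29 (SE), from 64 sorted and 39 background insertions (adjusted p = 4.22e-64, Fisher's exact test).

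Chd4, on chr6:125095981-125130591 on the plus strand, had 17.5 and 13.8 insertions per 10000 in the sorted replicates, from 39 and 21 insertions. Its unsorted libraries lay between 0.185 and 1.02 per 10000, again far below both sorted ones. The log2 odds ratio was 4.55 ± 0.25 (SE), from 60 sorted and 70 background insertions (adjusted p = 1.35e-49, Fisher's exact test). By edgeR the log2 fold changes were 5.18 for Chd3 (adjusted p 8.86e-42) and 4.42 for Chd4 (adjusted p 9.07e-34). Of the distinct sorted positions, 11 of 53 at Chd3 and 5 of 55 at Chd4 were found in both replicates.

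Arid4b, a chromatin-binding subunit of Sin3 on chr13:14063232-14199603 on the plus strand, rested on fewer insertions. There were 11 in sorted replicate 1 and 4 in replicate 2, or 4.94 and 2.63 per 10000. They lay at 14 distinct positions, 1 of them found in both replicates. The unsorted libraries lay between 0.214 and 0.861, with a median of 0.341, below both sorted ones. The log2 odds ratio was 3.39 ± 0.44 (SE, adjusted p = 6.07e-09, Fisher's exact test), and edgeR gave 3.02 with an adjusted p of 5.61e-05. With replicate 1 left out, the 4 insertions of replicate 2 gave 2.79 (adjusted p = 0.0161, Fisher's exact test) and no call. Its paralogue Arid4a had 3 and 1 in the sorted replicates and 43 in the background, a log2 odds ratio of 1.34 (adjusted p = 0.497, Fisher's exact test).

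**Figure D1:**
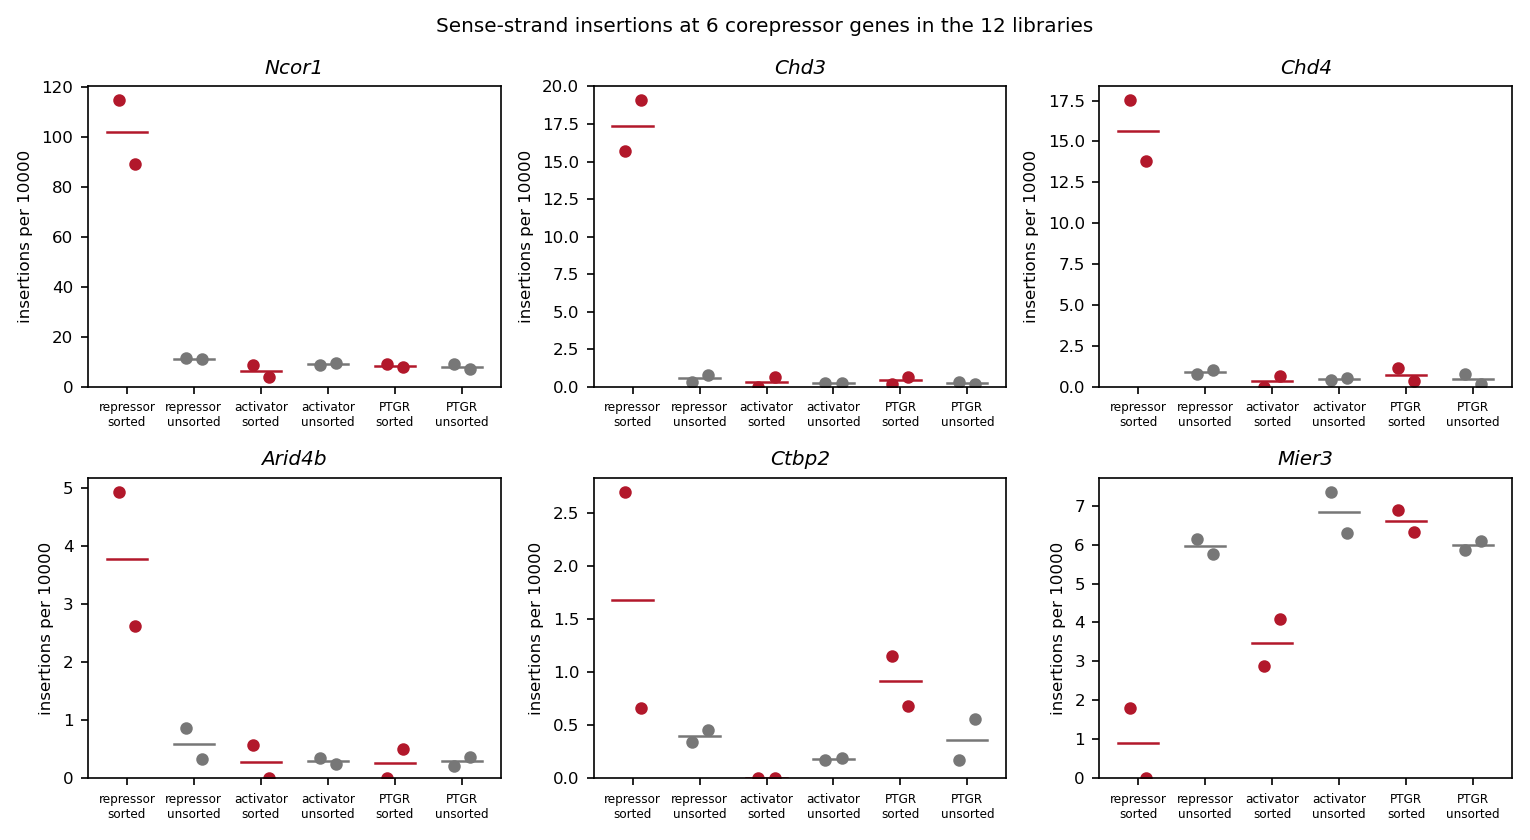
Sense-strand insertions per 10000 (linear vertical axes that differ between panels) at 6 corepressor genes in the 12 libraries. Each point is a library, red for sorted and grey for unsorted cells, and the line is the mean of 2 replicates. In the Ncor1, Chd3, Chd4 and Arid4b panels both repressor sorted libraries lie above all 10 others, at Mier3 they lie below them, and at Ctbp2 only replicate 1 lies above the others.

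The edgeR test, which takes in the spread between the 2 sorted and 2 unsorted libraries of the screen, called the same 4 genes for more insertions out of 28 members tested, beside 2.58% of 7688 genes. An exact permutation test of 1 gene with 2 against 2 libraries cannot reach 0.05. On the list with the strand reversed, where a cassette points away from the gene, 0 of 12 members tested were called, beside 5.61% of 2229 genes. Chd3 had 0 reversed sorted insertions, Chd4 2 and Arid4b 3. At Ncor1 there were 10 reversed sorted insertions for 930 in the background, a log2 odds ratio of -1.51, so the excess at these genes was on the sense strand.

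Of the other NCoR subunits, none was called. Tbl1x, a WD40 protein of the complex, had 3 sorted and 40 background insertions, and its paralogue Tbl1xr1 had 5 and 342, with log2 odds ratios of 1.03 and -1.33. Gps2, the subunit that links them, had 0 sorted insertions, but only 4 in the background. Without Ncor1, the NCoR genes held 8 sorted insertions where 14.2 were expected before the shift.

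NuRD without its remodellers held 16 sorted insertions over 7 genes where 37.6 were expected before the shift. Mta3 had 4 and 5 sorted insertions for 658 in the background, a log2 odds ratio of -1.42 beside the median of -1.37 of all genes (adjusted p for fewer = 0.0067, Fisher's exact test, short of 0.001). Mbd3, the methyl-CpG-binding-domain subunit, had 0 of 41, Gatad2b 0 of 50, and Gatad2a 2 for 129 in the background. At Gatad2b 1.83 sorted insertions were expected and at Mbd3 fewer, so a decrease was not detectable at this depth.

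Across Sin3, 7 of 12 genes lay above and 5 below the number expected, and the share of all genes was not counted. At Sin3a and Brms1, 1 sorted insertion was enough to lie above that number. Besides Arid4b, the most sorted insertions fell at Sap130 and Sap30, both with 7. Sap130 had 4 and 3 insertions for 75 in the background, a log2 odds ratio of 1.35 ± 0.57 (SE, adjusted p = 0.206, Fisher's exact test). Sap30 had 6 and 1, at 6 distinct positions, for 121 in the background, with a log2 odds ratio of 0.66. Without Arid4b the Sin3 genes held 19 sorted insertions in replicate 1, where 9.19 were expected before the shift. In replicate 2 they held 5 where 6.28 were, so the replicates lay on either side of these unshifted numbers. The shift lowers what an unchanged gene would give in both. The scaffolds Sin3a and Sin3b had 1 and 0 sorted insertions for 8 and 3 in the background, too few for a test.

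The catalytic subunits were not called. Hdac1 and Hdac2, the deacetylases of Sin3 and NuRD, had 1 and 4 sorted insertions for 86 and 212 in the background. For Hdac2 these were 3 and 1, or 1.35 and 0.658 per 10000, both below the unsorted range of 1.75 to 2.45. Its log2 odds ratio was -0.96 ± 0.73 (SE), near the shift of an unchanged gene. The class IIa deacetylases have little activity of their own and bind NCoR. They held 9 sorted insertions in replicate 1, where 4.94 were expected before the shift, and 3 in replicate 2, where 3.38 were. Hdac5 had 5 and 1, or 2.25 and 0.658 per 10000, around the unsorted range of 0.556 to 1.65.

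Both CtBP genes lay above the number expected without reaching a call. Ctbp2 had 6 and 1 sorted insertions, or 2.69 and 0.658 per 10000, for 28 insertions in the background at 0.171 to 0.555 per 10000. Both sorted libraries lay above the unsorted range, replicate 2 on a single insertion at a position also found in replicate 1. Of the 6 distinct sorted positions, 2 were also in the unsorted libraries of the screen. Its log2 odds ratio was 2.77 ± 0.61 (SE, adjusted p = 0.00229, Fisher's exact test), past 0.05 but not the threshold of 0.001. The call depended on the libraries taken: without sorted replicate 2 it passed, at 3.30 with an adjusted p of 0.000549, and without both repressor unsorted libraries at 3.16 with an adjusted p of 0.000846. The adjusted p of Ctbp2 was 0.0819 by edgeR and 0.00656 by DESeq2. Ctbp1 had 3 and 1 for 29 in the background, a log2 odds ratio of 1.91 (adjusted p = 0.219, Fisher's exact test).

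All 4 Groucho genes lay below the number expected, with 20 sorted insertions where 31.7 were expected and log2 odds ratios between -0.90 and -0.54 for the 3 with a sorted insertion. That is above the median of -1.37 of all genes with at least 5 expected, 143 of which had 0 sorted insertions. Tle2 had 0 for 25 in the background, and both Tle1 and Tle2 had fewer than 5 expected. Tle4, with the most, had 6 and 6 sorted insertions, or 2.69 and 3.95 per 10000, within the unsorted range of 2.59 to 5.69.

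**Figure D2:**
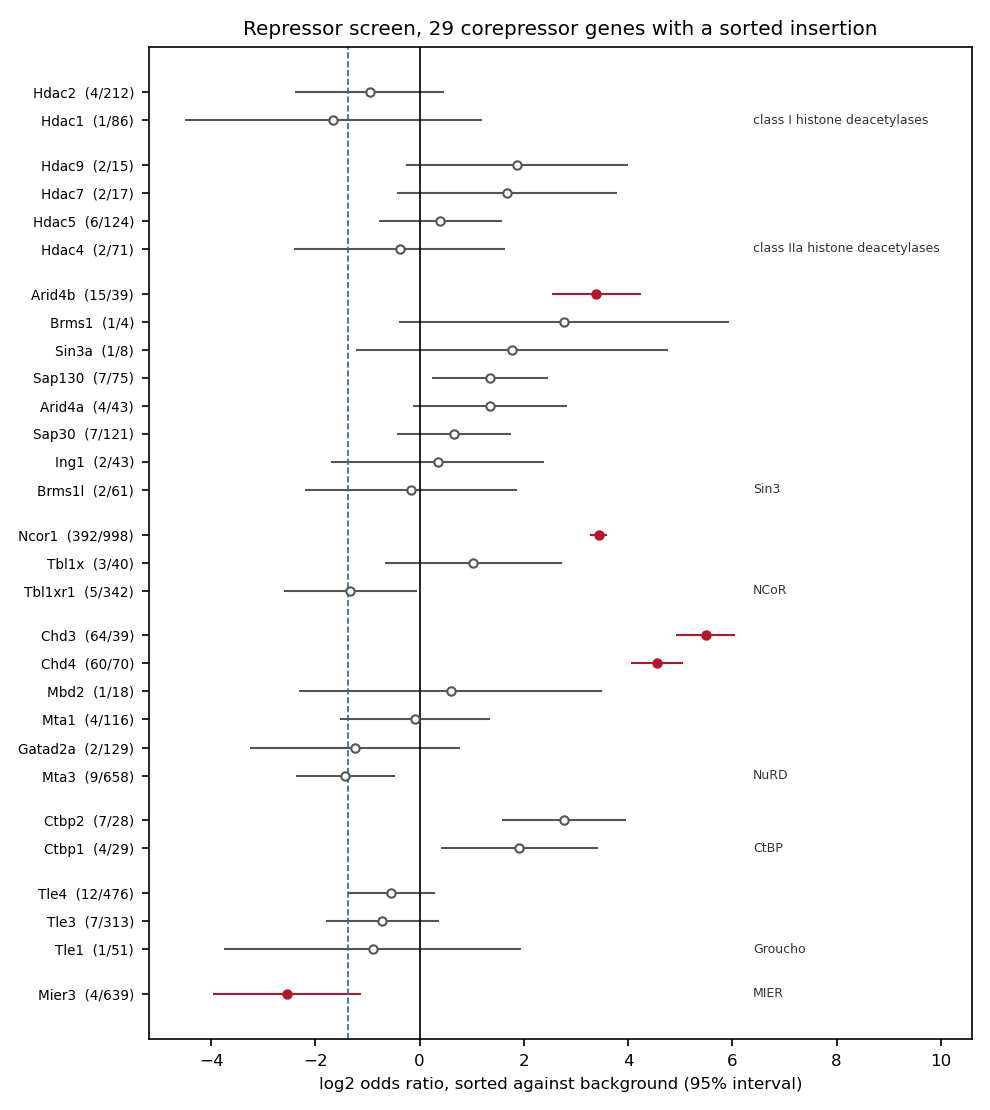
Log2 odds ratio of repressor sorted against background insertions (horizontal axis, bars are 95% intervals from counting error) for the 29 corepressor genes with a sorted insertion, grouped by complex, with sorted and background insertions in brackets. Filled red points are the 5 called genes, open points the others, the solid line is 0 and the dashed line the median of -1.37 over genes with at least 5 sorted insertions expected. Ncor1, Chd3, Chd4 and Arid4b stand to the right. Mier3 stands to the left, but its interval reaches the dashed line, and most other intervals reach that line or 0.

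Only Mier3 was called for fewer sorted insertions, 1 of 7 members with at least 5 expected, beside 1.77% of 2152 genes. Mier3 is one of 3 related proteins that bind Hdac1 and Hdac2. It had 4 insertions in sorted replicate 1 and 0 in replicate 2, or 1.80 and 0 per 10000, against 5.76 to 7.35 in the unsorted libraries, so both sorted libraries lay below the unsorted range. The log2 odds ratio was -2.55 ± 0.72 (SE), with an adjusted p of 0.000192 in the one-sided Fisher's exact test for fewer. The edgeR test for fewer called it as well, 1 of 28 members beside 1.16% of 7688 genes, at a log2 fold change of -2.16 and an adjusted p of 0.0177, while DESeq2 gave an adjusted p of 0.0876. The median log2 fold change of these 7688 genes by edgeR was -0.99, so the shift is in the edgeR values too.

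The Mier3 call did not hold against the shift of the whole screen. With the insertions at called genes taken out of both totals, the log2 odds ratio was -1.45 and the adjusted p in Fisher's exact test 0.388. It was also lost with either sorted replicate left out (-1.80, adjusted p = 0.0255, Fisher's exact test, without replicate 2). All of its insertions led to the acceptor of exon 2, from a median distance of 146152 bp in the background, with 98.6% of them upstream of the gene on chr13:111680979-111718596. Its relatives Mier1 and Mier2 had 0 sorted insertions, but 49 and 3 in the background.

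Where the insertions lay differed between sorted and unsorted cells at Ncor1. In the background, 748 of 998 insertions (74.9%) led to the acceptor of exon 2, ahead of the stop codon shown above. In repressor sorted cells 13 of 392 did (3.32%, 95% Wilson interval 1.95 to 5.59). By replicate the share was 3.13% and 3.68% in sorted cells, and in the unsorted libraries it ran from 62.2% to 86.1% with a median of 78.7%. This measure was chosen after the positions had been seen, so it is given without a test.

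The sorted insertions at Ncor1 led instead to exons 3, 4 and 24. Exon 3, which begins at residue 37 of 2454, took 88 and 50 of the sorted insertions in the 2 replicates and 65 in the background, 35.2% against 6.51%. Exon 4, from residue 82, took 91 and 40 against 133, and exon 24, from residue 1073, took 49 and 31 against 20. A fusion spliced at exon 24 would carry the last 56.3% of the protein.

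Counted apart, the 2 classes of acceptor at Ncor1 differed. At the exon 2 acceptor, the log2 odds ratio was -1.08 ± 0.40 (SE), beside a shift of -1.10 for an unchanged gene in this screen. At all other acceptors of Ncor1 it was 5.38 ± 0.12 (SE), from 379 sorted and 250 background insertions. The sorted insertions lay closer to the exon, at a median of 2911 bp against 51825 bp, and 3.06% of them were upstream of the gene against 64.2% in the background. In the other screens the exon 2 share was near that of unsorted cells, with 86.7% and 83.3% in activator sorted and 70.9% and 70.2% in PTGR sorted libraries.

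Arid4b showed the same order with few insertions. The exon 2 acceptor, ahead of its stop codon, took 27 of 39 insertions in the background (69.2%) and 2 of 15 in repressor sorted cells (13.3%). By library the share was 18.2% and 0% in sorted cells and between 33.3% and 100% in unsorted cells. Exon 3, from residue 3, took 5 and 2 sorted insertions against 4. At the acceptors other than exon 2 the log2 odds ratio was 4.89 ± 0.58 (SE), and at exon 2 it was 1.01 ± 1.06 (SE).

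Chd3 and Chd4 had no such split. At Chd4, where the bases ahead of the start codon are open in frame, 58 of 60 sorted and 68 of 70 background insertions led to exon 2. At Chd3, 62 of 64 sorted and 38 of 39 background insertions led to exon 2. The median distance was also alike, 5800 bp in sorted and 5808 bp in background cells at Chd3, and 6462 and 5638 bp at Chd4.

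**Figure D3:**
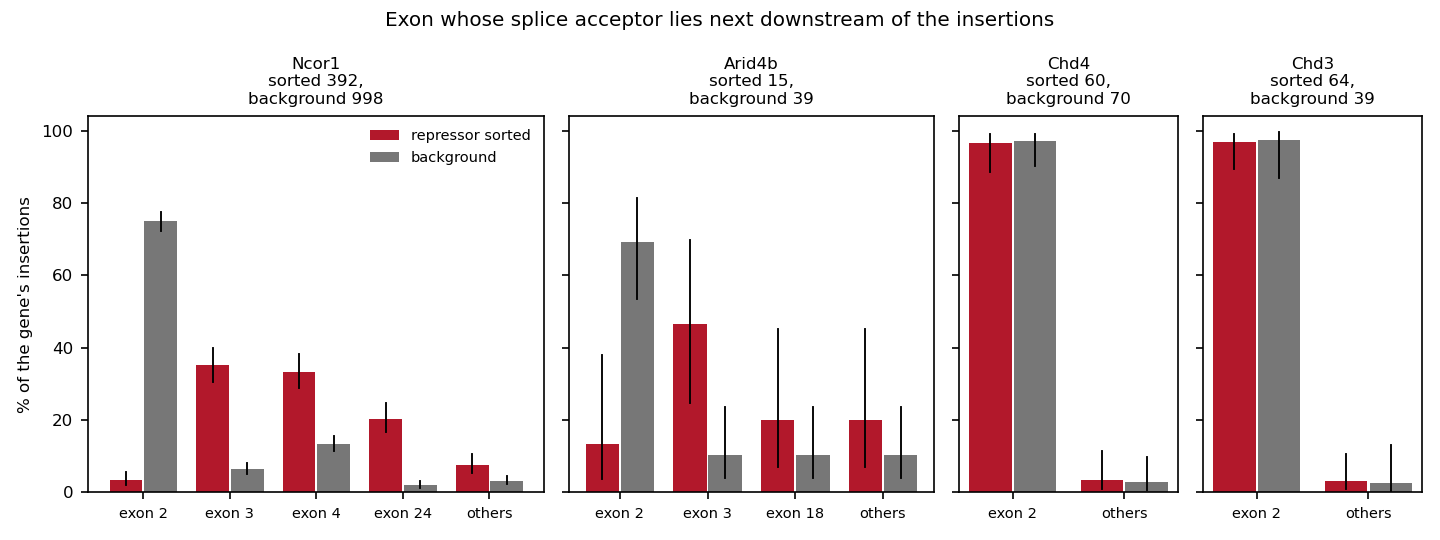
Share of each gene's insertions (vertical axis, percent, bars from 0) by the exon whose acceptor lay next downstream, in repressor sorted cells (red) and in the background (grey), with 95% Wilson intervals. At Ncor1 and Arid4b exon 2 takes 74.9% and 69.2% of the background but 3.32% and 13.3% of the sorted insertions. At Chd4 and Chd3 exon 2 takes nearly all insertions in both.

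Over all 41 genes, acceptors ahead of an in-frame stop codon took 20.6% of background and 3.01% of repressor sorted insertions, most of them at Ncor1. For the 37 members not called for more sorted insertions it was 7.01% and 4.00%. Over all genes it was 13.8% in the background, 7.52% in repressor sorted, 9.05% in activator sorted and 13.6% in PTGR sorted cells. Acceptors off the 1 transcript used per gene had no class and counted as not ahead of a stop codon in all these shares. Of the insertions at members and related genes, 78.5% led to an acceptor on that transcript. On these transcripts, acceptors ahead of an in-frame stop codon took insertions at 6 members. They took over 50% of the background of 4 of them: Ncor1, Arid4b, Hdac5 and Tbl1x. Hdac5 had 2 sorted insertions for 116 in the background at such an acceptor, and 4 for 8 at all others. At these others the log2 odds ratio was 3.77 ± 0.88 (SE). The 6 sorted insertions of Hdac5 lay at 5 distinct positions, 1 of them found in both replicates. Only 3 of the 6 led to an acceptor on the 1 transcript used. This split was chosen after the positions had been seen. With acceptors ahead of an in-frame stop codon left out for every gene, Hdac5 had an adjusted p of 0.00728 by Fisher's exact test and was not called. Ctbp2 was then called, at a log2 odds ratio of 3.23 with an adjusted p of 0.000406 in the same test. All 7 sorted Ctbp2 insertions, at 6 distinct positions, led to 1 coding acceptor. Of its 28 background insertions, 9 led to an exon ahead of a stop codon.

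In the activator screen, none of the members was called. The 41 genes held 102 sorted insertions, 0.318% of the total (95% Wilson interval 0.262 to 0.386), where 161 were expected. For more insertions this was 0 of 9 members tested, beside 4.64% of 2842 genes, and for fewer 0 of 7, beside 0.0% of 1752 genes. Of 28 members tested by edgeR 0 were called in either direction, beside 1.46% of 8000 genes, and DESeq2 called 0. By edgeR 3 had an unadjusted p below 0.05 (Mier3, Tbl1xr1 and Tle4, all with log2 odds ratios below 0). In the repressor screen it was 8 of 28 members: Mier3 with a log2 fold change below 0, and Arid4b, Chd3, Chd4, Ctbp1, Ctbp2, Ncor1 and Sap130 above 0. For these and the later counts at an unadjusted p, the share of all genes was not counted. On the reversed strand 0 of 8 members were called, beside 3.14% of 2706. Called genes took 34.2% of the sorted insertions there, a shift of -0.59 for an unchanged gene. Ncor1 had 15 and 6 sorted insertions, a log2 odds ratio of -0.58 ± 0.32 (SE). Chd3, Chd4 and Arid4b had 1 each.

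In the PTGR screen the members' share of sorted insertions was 0.510% (95% Wilson interval 0.471 to 0.552), close to the 0.501% of the background, with 610 insertions where 599 were expected. For more insertions 0 of 27 members were called, beside 0.666% of 9303 genes, and for fewer 0 of 22, beside 0.188% of 5842. By edgeR it was 0 of 29, beside 0.33% of 8491, with 2 members (Ctbp2 and Tle2) at an unadjusted p below 0.05 and 0 called by DESeq2. On the reversed strand it was 0 of 31, beside 0.5% of 9204. Ncor1, with 55 and 47 sorted insertions, had a log2 odds ratio of -0.19 ± 0.15 (SE), and Mier3, with 42 and 37, one of 0.08 ± 0.17 (SE). The highest value was that of Ctbp2, with 7 and 4 sorted insertions for 28 in the background, at 1.75 ± 0.51 (SE, adjusted p = 0.0967, Fisher's exact test). Mbd3 followed with 9 and 5 for 41, at 1.55 ± 0.45 (SE) and an adjusted p of 0.0803 in the same test.

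The difference between screens was tested for 35 members, each screen against its own unsorted libraries, with edgeR. Between the repressor and activator screens 3 members differed, beside 1.45% of 12809 genes. The log2 fold change at Ncor1 was higher by 4.02 in the repressor screen (adjusted p 3.46e-17, edgeR), at Chd3 by 4.94 (0.0075) and at Chd4 by 4.98 (0.000784). At Arid4b it was higher by 2.91, with an adjusted p of 0.940 by edgeR.

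Between the repressor and PTGR screens 4 members differed, beside 1.38% of the same genes: Ncor1 by 3.18 (adjusted p 2.35e-14, edgeR), Chd3 by 4.50 (0.000747), Chd4 by 4.00 (8.92e-06) and Mier3 by -2.60 (0.0212). Over all genes tested by edgeR within a screen, the median log2 fold change was -0.99 in the repressor and -0.0189 in the PTGR screen. Whether Mier3 differed beyond this shift was not tested. Between the activator and PTGR screens 0 members differed by edgeR, beside 0.71%, with 4 at an unadjusted p below 0.05. Ncor1 differed with any 1 of the 12 libraries left out, in both contrasts. Without activator sorted replicate 1, where Chd3 and Chd4 have 0 insertions and replicate 2 has 1 of each, only Ncor1 differed between the repressor and activator screens; Chd3 was also lost without repressor unsorted replicate 1 or activator unsorted replicate 1. Without PTGR unsorted replicate 1, which leaves a library of 54088 insertions as the only PTGR unsorted one, only Ncor1 differed between the repressor and PTGR screens. Mier3 was also lost there without repressor sorted replicate 2, either repressor unsorted replicate, activator unsorted replicate 2 or PTGR sorted replicate 1.

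**Figure D4:**
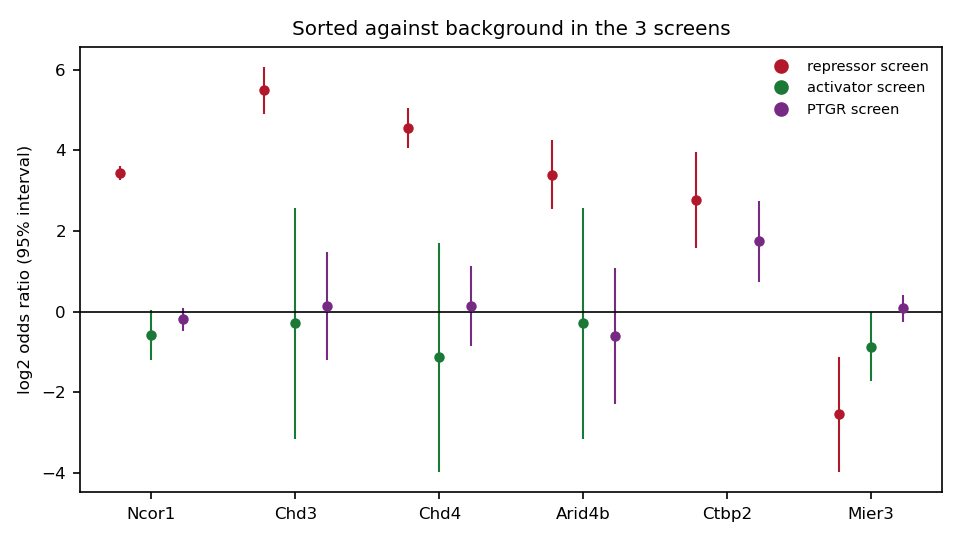
Log2 odds ratio of sorted against background insertions (vertical axis, bars are 95% intervals from counting error) for 6 corepressor genes in the repressor (red), activator (green) and PTGR (purple) screens, which share their background. The repressor points of Ncor1, Chd3, Chd4 and Arid4b lie above 3, with the other screens' intervals below them. Ctbp2 has no activator point because it had 0 sorted insertions there.

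Of 30 related subunits and deacetylases that are not among the 41, 26 were found by symbol. This list too was chosen with earlier results of these data known. In the repressor screen 3 of the 11 tested were called for more sorted insertions, beside the 8.18% of all genes, and 0 of 6 for fewer. Zmynd8, a chromatin reader that joins NuRD, had 213 and 105 sorted insertions for 963 in the background, a log2 odds ratio of 3.18 ± 0.09 (SE, adjusted p = 1.22e-165, Fisher's exact test). Cdyl, a chromodomain corepressor, had 54 and 49 for 93, a log2 odds ratio of 4.92. Sap25, a Sin3 subunit, rested on 3 and 2 sorted insertions for 3 in the background, a log2 odds ratio of 5.51 ± 1.05 (SE, adjusted p = 3.77e-05, Fisher's exact test). The call was lost with either replicate left out: replicate 1 alone gave an adjusted p of 0.00128 by Fisher's exact test, and the 2 insertions of replicate 2 were too few for it. Sap25 was not tested by edgeR. In the activator and PTGR screens 0 of the related genes were called in either direction on the sense strand.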

How the data were processed

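The authors trimmed reads with Trim Galore 0.6.0, aligned them to mm10 with Bowtie2, removed low mapping quality and duplicates with SAMtools 1.9, and assigned insertions to the nearest downstream non-first exon of a GENCODE protein-coding transcript. They deposited 24 lists of insertion positions with distance and exon, without read numbers, and 3 tables of insertion counts per gene summed over libraries. These counts were used here to check the sums: of the 41 members, sorted sums were equal for 40, 41 and 27 in the repressor, activator and PTGR screens. Over all 20409 genes they were equal for 16180 in the PTGR screen. The list of PTGR sorted replicate 2 gave 12.7% of its positions more than once, and each was counted once here. Why sums were unequal was not tested. The log2 odds ratios and p-values that the authors deposited in these tables were not used.

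From the lists, distinct positions at most 200 kb from the exon were counted per gene and library. Fisher's exact test compared both sorted libraries with the 6 unsorted ones, with Benjamini-Hochberg adjustment over all genes with at least 3 sorted insertions (more) or 5 expected (fewer). Calls by edgeR 4.0.16 (TMM, quasi-likelihood, at least 10 insertions over the libraries) needed an adjusted p below 0.05 and a log2 fold change of at least 1; differences between screens had no fold limit. DESeq2 1.42.0 was an alternative. Scripts were tested on simulated data. Intervals describe counting error alone; sister cells of 1 insertion are not independent. Acceptors were matched to GENCODE vM21 on GRCm38 (99.9% of 10572 insertions). Exons, residues and stop codons are those of 1 transcript per gene, which held the acceptor of 78.5% of these insertions. Samples were grouped by their labels, and edgeR was fitted without the replicate number as a block, with the block as an alternative. Named genes are the members called in any screen, their paralogues, and the member of each complex with the most repressor sorted insertions; the other members named were chosen after their values were seen. The members, gene lists and tests were chosen with earlier results of these data known. Values of 1 related gene are not reported here.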

Additional observations from a re-analysis of the deposited data

Results flagged for a closer look

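For 7 results the change from unsorted to sorted cells differed between screens by the interaction test of edgeR. Between the repressor and activator screens these were Ncor1 (4.016 on the log2 scale), Chd3 (4.935) and Chd4 (4.984). Between the repressor and PTGR screens they were Ncor1 (3.184), Chd3 (4.504), Chd4 (4.004) and Mier3 (-2.602). The Mier3 value was not set against the shift of the whole repressor screen. With each of the 12 libraries left out in turn, the difference at Ncor1 remained in 12 of 12 fits of both contrasts. That at Chd3 remained in 9 fits against the activator and 11 against the PTGR screen, that at Chd4 in 11 of both, and that at Mier3 in 6, with an adjusted p of up to 0.660 by edgeR.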

How the results depend on the processing

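The members called for more repressor sorted insertions numbered 3 to 5 under all alternatives run, with Ncor1, Chd3 and Chd4 in every one. Arid4b was lost without repressor sorted replicate 1 and by edgeR with no filter on low counts. Ctbp2 joined under 6 settings, among them DESeq2, an adjusted p below 0.05, totals without the called genes (log2 odds ratio 3.87), and acceptors before a stop codon left out. The log2 odds ratio ran from 3.21 to 5.28 at Ncor1, 4.91 to 6.59 at Chd3, 4.14 to 5.65 at Chd4 and 2.74 to 4.78 at Arid4b. The range of Mier3, given next, leaves out settings in which it had 0 sorted insertions, such as without repressor sorted replicate 1. Most background insertions of Mier3 lay beyond 50 kb, so that limit left few to count. The single call for fewer, Mier3 (-2.65 to -1.45), became 0 with a limit of 50 kb, with positions within 10 bp counted as 1, with positions also in unsorted cells left out, with totals without the called genes, by DESeq2, by edgeR with no filter, and (0 to 1) with a library left out; at an adjusted p below 0.05 there were 3. The edgeR count for fewer, 1, was 0 by DESeq2, with no filter and with any library left out. With the replicate number as a block edgeR called the same 4 and 1 members, and the same members differed between screens; over all genes 57 in place of 89 were then called for fewer in the repressor and 7 in place of 0 in the PTGR screen. The deviations of same-numbered libraries correlated at -0.000664, 0.0481 and 0.207 in the repressor, activator and PTGR screens. The members' share of sorted insertions at 50 kb was 2.07% (repressor), 0.239% (activator) and 0.386% (PTGR). The background share at 50 kb was not counted, so these values cannot be set against the background at 200 kb. At 200 kb, the background share was 0.535% in repressor unsorted cells alone. The members that differed between the repressor and activator screens numbered 1 to 3, and between the repressor and PTGR screens 1 to 4, with a library left out. Over all genes, calls for fewer in the repressor screen fell from 38 to 0 with totals without the called genes and rose to 796 at an adjusted p below 0.05, and those by edgeR ran from 89 to 0 with no filter and 324 without TMM; calls for more by edgeR fell from 198 to 74 with no filter. For PTGR 62 calls for more became 40 against its own unsorted libraries and 121 at an adjusted p below 0.05, and 28 by edgeR became 0 without either unsorted library. Fits that leave 1 library in a group assume that it varies like the others. The causes were not tested. The totals without the called genes, the repressor unsorted libraries left out, the stop codon acceptors left out, and the alternatives for fewer and for differences between screens, the block included, were chosen after seeing the data. Sorted libraries of 14705 to 60980 insertions limit what can be said of the 7 members with under 10 background insertions.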

Other observations

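Zfp541, which encodes a partner of class I deacetylases in germ cells, was called on the reversed strand in the activator screen, with 40 reversed sorted insertions for 113 in the background. That was 1 of 7 related genes tested there, beside 3.14% of 2706 genes. It was the only related gene called on that strand in any screen. The 40 insertions were not split by replicate.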
